A study of Arabidopsis thaliana with 18 samples.

Results

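The transcripts of Arabidopsis leaves in which NAA50 had been knocked down for 12 h were compared with those of a control line at the same time. The comparison took 6 of the 18 libraries of the study, 3 from each line, chosen by their labelled line and time, and covered every gene of the deposited table. In the NAA50 line dexamethasone, a synthetic glucocorticoid, induces an artificial microRNA (amiRNA) directed at NAA50, and in the scrambled line it induces an amiRNA of scrambled sequence, which serves as the negative control. Both lines were grown for 4 weeks in short days (8 h light, 16 h darkness), and 50 µM dexamethasone was applied as a spray, so the control carried an inducible transgene and received the hormone too. Each library came from 0.4 g of tissue pooled from the 4th leaf of 4 plants. The labels give the tissue as leaf and its source as rosette, and the number of independent transformants behind each line and the hour of harvest were not found among the labels. Libraries of each line at 0 h and 24 h, 3 per group, are used below only to set the 12 h difference beside those at the other times.

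NAA50 is a catalytic subunit of the enzymes that transfer an acetyl group to the first amino acid of a protein while it is being made. This N-terminal acetylation is among the most common modifications of eukaryotic proteins and bears on their stability, folding and targeting. In Arabidopsis loss of NAA50 is known to stunt growth and to go with signs of stress in the endoplasmic reticulum. An amiRNA is a hairpin-derived small RNA whose sequence is chosen to pair with 1 transcript, which is then cleaved or silenced.

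The 12 h libraries held 11177142 to 12240853 counts in the NAA50 line and 10802299 to 11716470 in the scrambled line, and between 20433 and 20611 genes had at least 1 count. On the first principal component of the 6 libraries, which carried 79.5% of the variance, the NAA50 line stood at 62.1 to 67.1 and the scrambled line at -67.7 to -61.8. The second carried 9.05% and set library 3 of each line, with negative values, apart from the other 4, which were positive. The 10 genes with most counts took 4.14% to 4.85% of the counts in the NAA50 line and 5.89% to 7.05% in the scrambled line. Levels below are in CPM, counts scaled to the size of the library, after TMM scaling, which corrects for such differences in composition, and are given for libraries 1, 2 and 3 in that order. A line difference is the fitted log2 ratio of the NAA50 line to the scrambled line ± its standard error, and a gene is called when its adjusted p in edgeR is under 0.05. Replicates are separate pools of plants as far as the labels say, so p-values measure the spread between such pools.

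The targeted gene was lower in every NAA50 library. NAA50 (AT5G11340, chr5:3619152-3621511, plus strand, TAIR10.1) stood at 3.75, 4.16 and 3.12 CPM in the NAA50 line and at 16.6, 12.8 and 15.7 CPM in the scrambled line, a difference of -2.03 ± 0.18 (adjusted p = 5.38e-07). The groups were apart by a wide margin, with 4.08 times as much NAA50 RNA in the control. Before induction the mean levels were 12.6 and 14.0 CPM (difference -0.16, adjusted p = 0.664), and leaving out any 12 h library gave -2.13 to -1.92. As these are bulk leaf samples, fewer cells of a type and less RNA per cell cannot be told apart here or in any result below.

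Other genes that act on protein N-termini moved little. In a list of 6 other N-terminal acetyltransferase genes the line differences ran from -0.27 to 0.35. edgeR called 0 of them (lowest adjusted p 0.0969, 0 with an unadjusted p under 0.05) and DESeq2 called 0, while 46.2% of all genes tested were called. AT1G03150 had 12.7, 12.6 and 11.5 CPM in the NAA50 line and 15.7, 12.9 and 15.8 CPM in the control, groups that are close but separate. Of 12 genes for methionine removal and N-degron recognition, the routes that trim and read protein N-termini, 2 were lower and 1 was higher. The lower ones were the methionine aminopeptidases MAP1C (-0.51 ± 0.12, adjusted p = 0.0022) and MAP1D (-0.48 ± 0.14, adjusted p = 0.0125), the latter not called without scrambled library 1 (adjusted p = 0.0526) or with scaling by library size alone (0.072). PRT1, an E3 ligase that recognises N-degrons, was higher (0.66 ± 0.18, adjusted p = 0.00691).

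The lines differed across much of the transcriptome at 12 h. Of 18344 genes tested 8484 were called, 4018 (21.9%) higher and 4466 (24.35%) lower in the NAA50 line, and 1393 (7.59%) and 1864 (10.2%) of these also differed at least 2-fold. With scaling by library size alone the median of all genes moved from -0.03 to 0.14, a shift of 0.17, and the calls divided into 5442 higher and 3093 lower, 63.8% and 36.2% of calls against 47.4% and 52.6%. At 4-fold 504 were higher and 537 lower, at 8-fold 270 and 169, and at 32-fold 104 and 26. In 59.2% of genes tested the 3 NAA50 and the 3 scrambled libraries did not overlap. Before induction, by contrast, 18 genes (0.0981%) were called, 16 (0.0872%) higher and 2 (0.0109%) lower. An unadjusted p under 0.05 in edgeR was more common, in 2434 genes at 0 h and 9686 at 12 h. The few calls at 0 h thus do not show that the lines were alike then.

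**Figure D1:**
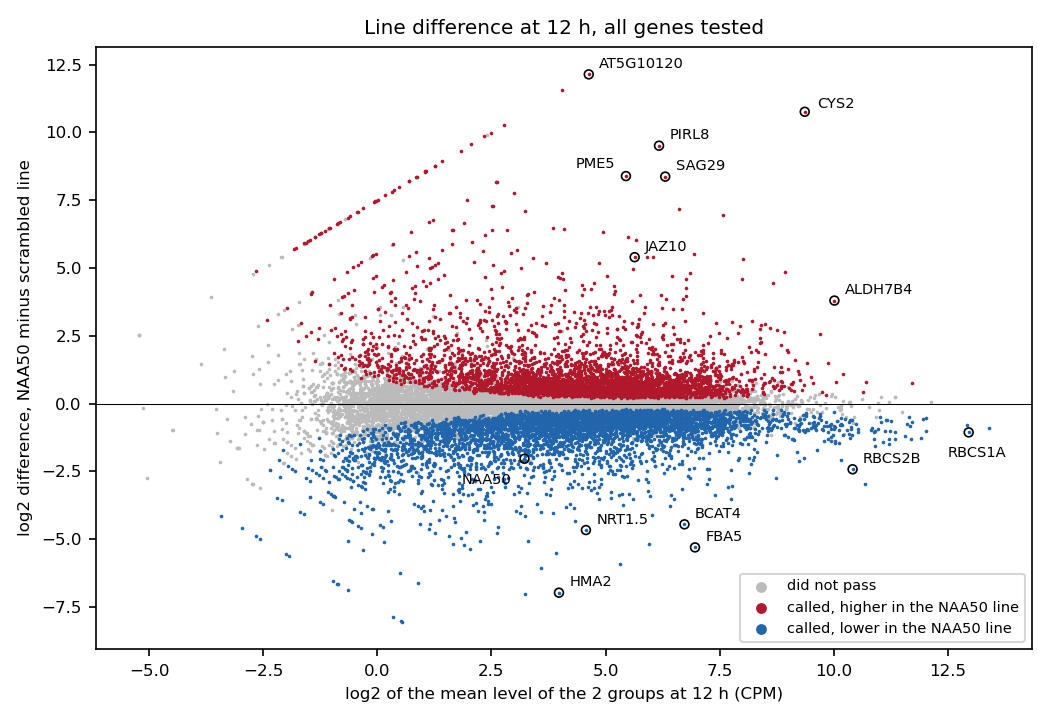
Line difference at 12 h (log2, vertical) against the log2 of the mean level of the 2 groups in CPM (horizontal) for all 18344 genes tested, red where called higher in the NAA50 line (4018), blue where called lower (4466) and grey otherwise. Named points are described in the text, and the oblique line of red points at low levels is made of genes with 0 counts in all 3 scrambled libraries, whose fitted values depend on the prior count.

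Among the called genes at a mean log2 CPM of 1 or more, the 12 largest increases were genes almost silent in the control. CYS2 (AT2G31980), a phytocystatin that inhibits cysteine proteases, stood at 1260, 1398 and 1299 CPM in the NAA50 line and at 0.547, 1.28 and 0.453 CPM in the scrambled line (10.76 ± 0.66, adjusted p = 1.28e-08). The ratio of the mean levels was 1736, and at 0 h the means were 3.27 and 0.957 CPM. PIRL8, which encodes an intracellular leucine-rich repeat protein, stood at 152, 143 and 136 CPM in the NAA50 line and at 0.274, 0.197 and 0.0907 CPM in the control (9.51 ± 0.39, adjusted p = 1.77e-10). The choice required separate groups, and for both genes the gap was far wider than that condition asks. AT5G10120, a member of the EIN3 family of transcription factors by its annotation, had 48.8, 59.2 and 40.8 CPM in the NAA50 line and 0 counts in all scrambled libraries at 12 h. Against the floor that 3 counts over that group allow (0.0932 CPM), it was at least 532-fold higher.

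A further 9 of these 12 genes also had 0 counts in the 3 scrambled libraries. They included PEI1, a zinc finger gene (31.5, 36.6 and 31.4 CPM, at least 356-fold higher), and AT3G23470, annotated as a cyclopropane fatty acid synthase (14.8, 12.9 and 13.5 CPM, at least 147-fold). NIC3, a nicotinamidase of NAD salvage, had 10.4, 10.7 and 9.37 CPM (at least 109-fold). These levels lie well above the 0.234 to 0.246 CPM that 3 counts represent in a NAA50 library. The other 6 are AT1G14220, CYP702A3, AT1G28590, AT3G47200, EDA21 and AT4G18660, at least 119.7-, 89.3-, 75.9-, 57.6-, 51.7- and 51.7-fold higher. Among all genes tested, 48 called ones had 0 counts in the scrambled libraries at 12 h, and 13 had 0 counts in the NAA50 libraries.

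The 250 bases before the annotated start of CYS2 are shown because it was the most abundant of these genes, read from the TAIR10.1 RefSeq genome at chr2:13609956-13610205, minus strand, 5′ to 3′. Capitals mark ACGTG on either strand, the core of the abscisic acid response element, which also lies on both strands of the G-box CACGTG.
CYS2: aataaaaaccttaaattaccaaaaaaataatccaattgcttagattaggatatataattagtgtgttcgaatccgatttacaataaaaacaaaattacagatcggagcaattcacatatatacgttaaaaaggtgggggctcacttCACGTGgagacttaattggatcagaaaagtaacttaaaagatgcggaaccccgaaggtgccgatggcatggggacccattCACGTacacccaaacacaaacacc
The window held 3 matches to ACGTG, 2 of them in a G-box. Of 18195 promoter windows of this length, 23.8% held at least 1 such match, as did 26.9% of those of genes called at least 2-fold higher and 24.9% of those called at least 2-fold lower. A match is a description of letters and does not show that a factor binds there.

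**Figure D2:**
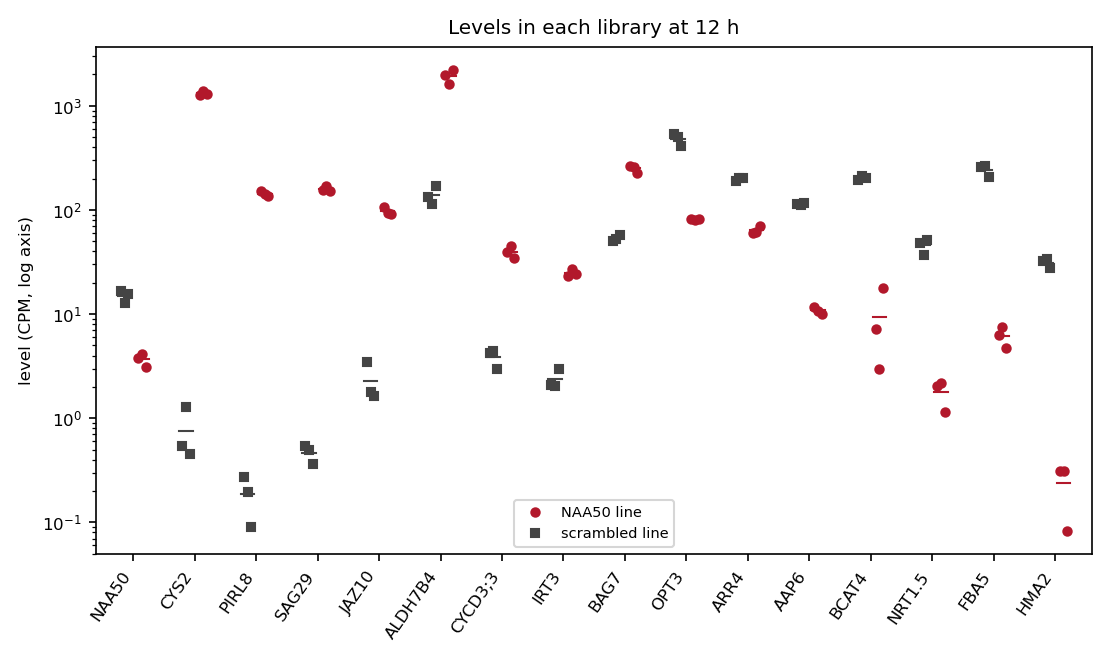
Level in each library at 12 h (CPM, log axis) of 16 genes, with circles for the NAA50 line, squares for the scrambled line and a bar at each group's mean. The groups do not overlap for any of the 16, and NAA50 itself lies at 3.12 to 4.16 CPM in its line against 12.8 to 16.6 CPM in the control.

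The 12 largest decreases, chosen under the same conditions, included transporters, enzymes and regulators. HMA2, a zinc-exporting ATPase of the plasma membrane, had 0.313, 0.314 and 0.0822 CPM in the NAA50 line and 32, 34 and 27.7 CPM in the scrambled line (-6.97 ± 0.89, adjusted p = 1.77e-05). FBA5, a fructose-bisphosphate aldolase, had 6.33, 7.45 and 4.68 CPM against 261, 262 and 207 CPM (-5.30 ± 0.57, adjusted p = 3.72e-06). BRS1, a serine carboxypeptidase-like protein, had 0, 0.157 and 0.246 CPM against 14, 27.4 and 14.7 CPM (-7.02 ± 0.70, adjusted p = 1.81e-06). All control libraries lay above all NAA50 libraries for each of the 3, which the choice required. The amino acid transporter family gene UMAMIT17 differed by -6.06, the ABC transporter gene ABCB15 by -5.35 and BHLH101, a regulator of iron deficiency responses, by -5.18. PDF1.2, a plant defensin, stood at 0.0782, 0 and 0.493 CPM against 8.21, 7.57 and 6.16 CPM (-5.22 ± 1.41, adjusted p = 0.00712). The other 5 of the 12 largest decreases were AT5G05250, AT1G13650, AT2G30766, AT3G26960 and AT5G57340, at -5.93 to -5.07, and 22% of AT2G30766 lies opposite AT2G30760.

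The called genes with most counts and at least a 2-fold difference were taken next, 6 each way, and the higher ones are given here. ALDH7B4, an aldehyde dehydrogenase, had 1961, 1633 and 2201 CPM in the NAA50 line and 134, 114 and 169 CPM in the scrambled line (3.80 ± 0.41, adjusted p = 3.46e-06). HA1, a plasma membrane proton pump, had 1660, 1628 and 1569 CPM against 794, 688 and 772 CPM (1.11 ± 0.12, adjusted p = 3.84e-06). The groups were apart for both, and the span between libraries of a line was small beside the gap. cICDH, a cytosolic isocitrate dehydrogenase, differed by 1.49 and FSD1, an iron superoxide dismutase, by 1.0. ADC2, an arginine decarboxylase of polyamine synthesis, differed by 2.56 at 12 h and by 1.95 at 0 h (adjusted p = 0.141), so that the change from 0 h was 0.61 ± 0.67 (adjusted p = 0.544). AAE3, an oxalyl-CoA synthetase, likewise differed by 1.51 at 12 h and by 1.37 at 0 h (adjusted p = 0.155).

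Genes are described below in 43 lists by pathway or cell type. Every count is to be read against the shares over all genes tested, 46.2% called, 21.9% higher and 24.35% lower, and a list near these shares is not set apart from other genes. The lists and their members were chosen with earlier results of these data known, so their counts describe them and test nothing. Up to 4 members of each list, those with the lowest p, are named by rule, and other members named were chosen after their values were seen. For the direction of the medians below, scaling by library size alone raises every value by about 0.17, and only medians farther from 0 than that are given as a direction.

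**Figure D3:**
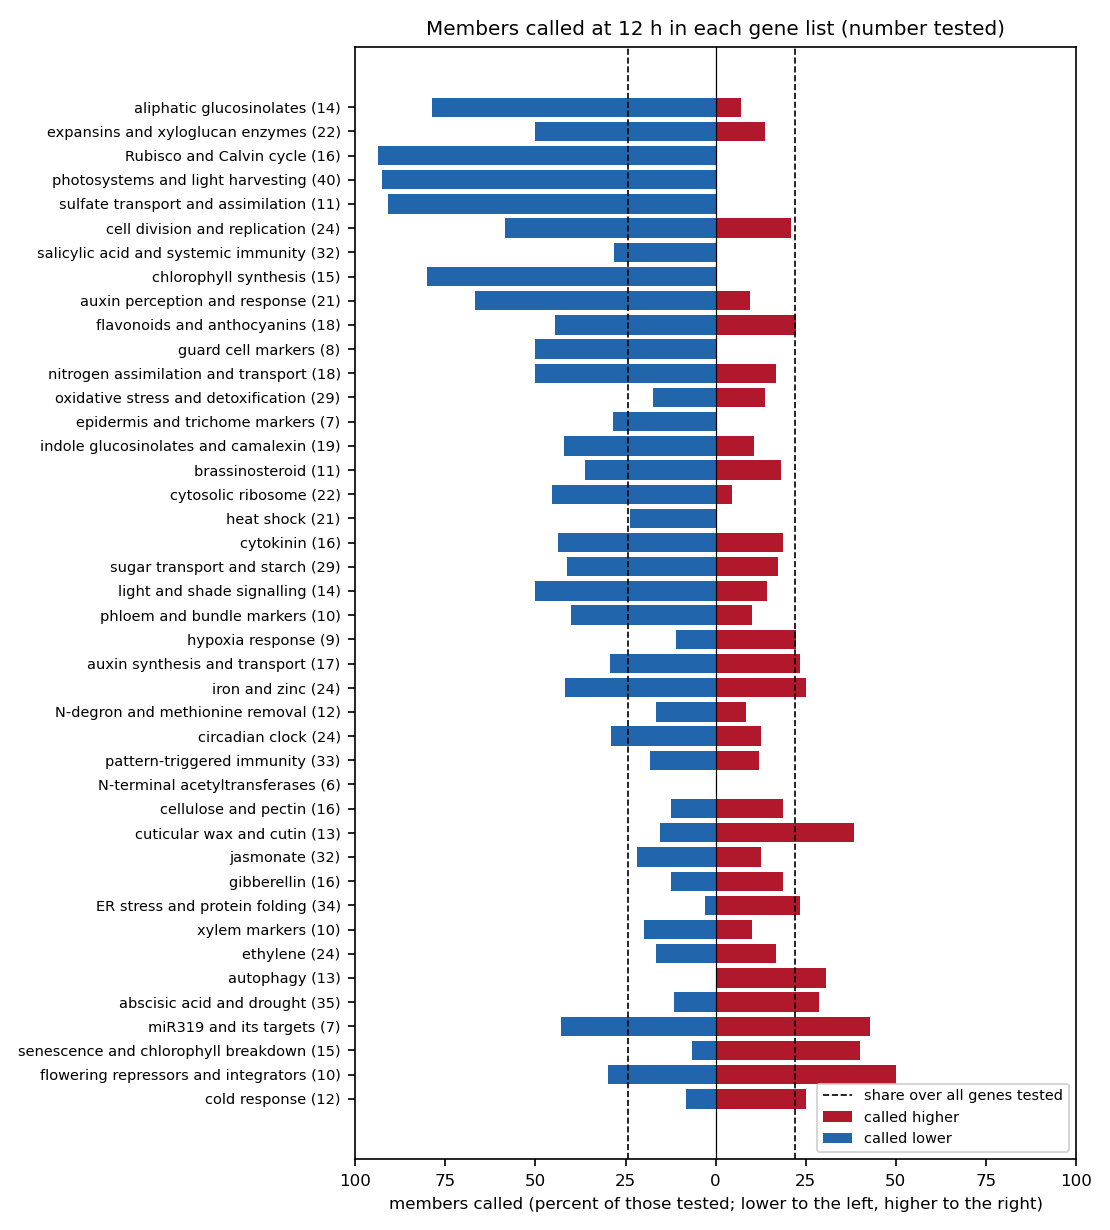
Members called at 12 h as a percent of those tested in each gene list (number tested in brackets), called lower to the left in blue and called higher to the right in red, ordered by the median line difference. Dashed lines give the share over all genes tested (24.35% lower, 21.9% higher). The bars of the photosystem, Rubisco, sulfate, chlorophyll and aliphatic glucosinolate lists reach farthest to the left.

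The machinery of photosynthesis was lower throughout. Of 40 nuclear genes for the photosystems, light-harvesting antennae and electron carriers, 37 (92.5%) were called lower and 3 did not pass, with a median of -0.94 against -0.03 over all genes. Of 16 genes for Rubisco and the Calvin cycle, which fixes carbon dioxide, 15 were lower and 1 did not pass (median -1.08). The summed level of the photosystem list was 40552 to 55798 CPM in the NAA50 line and 80954 to 105914 CPM in the control, and that of the Rubisco list was 20056 to 27751 and 45765 to 54782 CPM. The 2 ranges do not overlap for either list.

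RBCS1A, the Rubisco small subunit gene with most counts, had 5058, 6178 and 4218 CPM in the NAA50 line and 11368, 11636 and 9325 CPM in the scrambled line (-1.06 ± 0.23, adjusted p = 0.00147). Its relative RBCS2B had 424, 483 and 383 CPM against 2305, 2626 and 1971 CPM (-2.42 ± 0.29, adjusted p = 1.11e-05). The members of this family were thus lower by different amounts, from -1.06 for RBCS1A to -2.42 for RBCS2B, with RBCS3B at -1.58 and RBCS1B at -1.29. RBCS2B and RBCS1B are 97.3% identical over their coding sequences, so reads could be exchanged between them. Among antenna genes LHCB2.3 stood out at 112, 136 and 84 CPM against 648, 995 and 590 CPM (-2.75 ± 0.45, adjusted p = 0.000173), though 37.6% of the gene lies opposite another. The photosystem II genes PSBO2 (-0.93) and PSBY (-1.02) and the photosystem I antenna gene LHCA1 (-1.43) were lower with smaller differences. Of the 6 genes with most counts that were called at least 2-fold lower, 5 were RBCS1A, LHCA4 (-1.02), LHCB5 (-1.27), LHCB3 (-1.31) and LHCA3 (-1.18), and the sixth was GAPA of the Calvin cycle (-1.04). LHCB1.2 (-0.73), PSAF (-0.50), FED A (-0.16) and CP12-1 (-0.21) did not pass.

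The promoter windows of the 2 Rubisco genes are shown because their line differences were unlike, from TAIR10.1 at chr1:25049668-25049917 and chr5:15382072-15382321, both minus strand, 5′ to 3′. Capitals mark GATAAG, the core of the I-box found in light-responsive promoters, and ACGTG, each on either strand.
RBCS1A: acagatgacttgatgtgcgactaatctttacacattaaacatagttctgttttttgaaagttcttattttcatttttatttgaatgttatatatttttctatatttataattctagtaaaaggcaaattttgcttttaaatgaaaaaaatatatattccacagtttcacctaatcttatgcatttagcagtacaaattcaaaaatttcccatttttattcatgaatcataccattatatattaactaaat
RBCS2B: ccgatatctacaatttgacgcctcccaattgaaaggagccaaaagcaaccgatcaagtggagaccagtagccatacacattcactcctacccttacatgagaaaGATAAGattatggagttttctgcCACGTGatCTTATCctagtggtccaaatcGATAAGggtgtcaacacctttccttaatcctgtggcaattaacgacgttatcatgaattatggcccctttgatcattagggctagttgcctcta
RBCS2B held 3 matches to GATAAG and 2 to ACGTG, which are the 2 strands of a G-box, and RBCS1A held neither in these 250 bases. Each window ends at the annotated start, and bases farther upstream or inside the annotated gene were not read. RBCS1A may thus hold such letters outside its window, and their part in the unlike line differences was not tested. GATAAG was present in 11 of 40 photosystem promoters (27.5%) and 4 of 16 of the Rubisco list (25.0%), against 12.5% of all, 15.7% of genes at least 2-fold lower and 11.6% of genes at least 2-fold higher. The G+C content of the photosystem windows was 32.9% and that of all windows 31.6%.

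Chlorophyll synthesis was lower as well. Of 15 genes 12 were called lower and 3 did not pass (median -0.69), of which 1 was called higher with the replicate block in the 12 h libraries alone. GLK2, a transcription factor that promotes chloroplast development, had 58.5, 58.6 and 49 CPM in the NAA50 line and 249, 236 and 186 CPM in the scrambled line (-2.01 ± 0.31, adjusted p = 0.000102). PORC, a protochlorophyllide reductase, had 40.8, 44.2 and 33.9 CPM against 110, 137 and 103 CPM (-1.56 ± 0.23, adjusted p = 7.03e-05). All 3 control libraries were above all 3 NAA50 libraries for both. CHLD (-0.58), a subunit of magnesium chelatase, and GUN4 (-1.17), a regulator of that enzyme, were lower too, and 73.0% of GUN4 lies opposite GCN2.

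Lower values of these 3 lists were already present before induction. At 0 h all 40 photosystem genes, all 16 Rubisco genes and all 15 chlorophyll genes had a negative line difference, with medians of -0.42, -0.37 and -0.43, though the lowest adjusted p values were 0.298, 0.365 and 0.0659. The change in the line difference from 0 h to 12 h was called negative in 2 photosystem genes, 5 Rubisco genes and 2 chlorophyll genes, against 13.2% of all genes. RBCS2B was among them (-1.81 ± 0.39, adjusted p = 0.00401).

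Genes of leaf senescence and chlorophyll breakdown gave 6 higher and 1 lower of 15 (46.7% called, against 46.2% of all genes; median 0.36). SAG29, a sugar transporter of the SWEET family induced in ageing leaves, had 154, 169.7 and 152 CPM in the NAA50 line and 0.547, 0.492 and 0.363 CPM in the scrambled line (8.37 ± 0.64, adjusted p = 1.22e-07). NYE2, which takes part in chlorophyll breakdown, had 7.74, 6.04 and 11.7 CPM against 1.73, 0.787 and 1.36 CPM (2.69 ± 0.37, adjusted p = 3.45e-05). No library of either line reached the other line's range for these genes. All 15 members had a positive line difference at 0 h as well (median 1.24), and SAG201 was called then (2.57, adjusted p = 0.0226) as at 12 h (2.39). The change from 0 to 12 h was called positive in 0 members and negative in 4, against 11.8% and 13.2% of all genes. For SAG29 it was 4.44 ± 2.06 (adjusted p = 0.129) and for NYE2 0.67 ± 0.59 (adjusted p = 0.435), so neither passed. JUB1, a NAC factor that delays senescence, was the member called lower at 12 h (-1.42 ± 0.41, adjusted p = 0.0108). With the replicate block in the 12 h libraries alone 4 members were lower. Of 13 autophagy genes (30.8% called, against 46.2%) 4 of the ATG8 family were higher, ATG8I (0.50), ATG8B (0.52), ATG8H (0.82) and ATG8A (0.68). Without NAA50 library 3 that count was 1, without scrambled library 1 it was 2, and with library-size scaling it was 7.

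Genes for glucosinolates, sulfur-rich defence compounds, were mostly lower. Of 14 genes for the aliphatic kind, made in the cabbage family from methionine, 11 were called lower, all at least 2-fold, and 1 was higher (median -2.49). BCAT4, which starts the chain elongation of methionine, had 7.19, 2.98 and 17.8 CPM in the NAA50 line and 194, 212 and 204 CPM in the scrambled line (-4.45 ± 0.57, adjusted p = 1.9e-05). CYP83A1, an enzyme of core structure formation, had 52.3, 27.9 and 63.4 CPM against 393, 405 and 365 CPM (-3.02 ± 0.36, adjusted p = 9.56e-06). In both, library 2 of the NAA50 line was lowest and library 3 highest, and all 3 were below the control. MYB29, a transcription factor of the pathway, differed by -2.69 ± 0.30 (adjusted p = 5.47e-06), and FMO GS-OX1, which oxidises side chains, by -2.56 ± 0.35 (adjusted p = 3.15e-05). MYB28, the other main regulator, had 59.5, 62.4 and 50.9 CPM against 60.6, 64.2 and 58.9 CPM, ranges that overlap (-0.09 ± 0.17, adjusted p = 0.703). The member called higher was MAM3 (0.90 ± 0.26, adjusted p = 0.00987), an enzyme of chain elongation whose call is lost without scrambled library 2.

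Here the line difference was of opposite sign before induction. The median at 0 h was 0.61 (lowest adjusted p 0.372), and the change from 0 to 12 h was called negative in 11 of 14 genes, against 13.2% of all genes tested. The change was -5.18 ± 0.74 for BCAT4 (adjusted p = 0.000181) and -3.39 ± 0.48 for CYP83A1 (adjusted p = 0.000178). The window before CYP83A1 (TAIR10.1, chr4:7992430-7992679, minus strand) is shown as that of a lower gene with a G-box, in capitals. It is not typical of the list, since the G-box was present in 1 of 14 promoters (7.14%), this one, against 7.58% of all.
CYP83A1: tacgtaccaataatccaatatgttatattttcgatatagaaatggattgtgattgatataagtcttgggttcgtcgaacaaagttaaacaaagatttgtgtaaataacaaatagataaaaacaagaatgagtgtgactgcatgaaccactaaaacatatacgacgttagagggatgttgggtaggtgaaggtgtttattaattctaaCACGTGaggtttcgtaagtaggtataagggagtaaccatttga
ACGTG was present in 7 of 14 promoters of this list (50.0%), 16 of 40 of the photosystem list (40.0%) and 17 of 35 of the abscisic acid list (48.6%), lists that moved differently, against 23.8% of all.

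For the indole glucosinolates, made from tryptophan, and camalexin, 8 of 19 genes were lower and 2 higher (52.6% called, against 46.2% of all genes). CYP79B3, the entry enzyme, had 5.16, 3.69 and 6.24 CPM in the NAA50 line and 53.2, 46.8 and 38 CPM in the control (-3.19 ± 0.46, adjusted p = 5.43e-05). MYB34, its regulator, differed by -2.40 and CYP81F3, a ring-modifying enzyme, by -1.84. SUR1, the C-S lyase that both pathways share, had 74.7, 51.3 and 82.1 CPM against 169, 175 and 169 CPM (-1.30 ± 0.17, adjusted p = 2.8e-05). The 2 higher members were the regulators MYB51 (0.63) and MYB122 (2.5), and leaving out NAA50 library 3, scrambled library 1 or scrambled library 3 left 0 of them called.

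Genes that take up and reduce sulfate were lower in 10 of 11 cases (median -0.80). SULTR1;2, a sulfate transporter, had 0.782, 0.157 and 0.575 CPM in the NAA50 line and 6.02, 2.26 and 3.81 CPM in the control (-2.98 ± 0.56, adjusted p = 0.000537). APR1, a reductase of activated sulfate, had 219, 184 and 197 CPM against 592, 595 and 401 CPM (-1.40 ± 0.21, adjusted p = 9.38e-05). LSU2, a gene induced when sulfur is short, had 20.5, 18.9 and 15.5 CPM against 111, 109.6 and 84.6 CPM (-2.48 ± 0.39, adjusted p = 0.000125). Groups were separate for all 3, and APR3 (-0.88) was lower as well. At 0 h the median of the list was 0.03, and 6 of 11 members changed from 0 to 12 h, all negatively.

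Metal genes moved strongly in both directions. Of 24 genes of iron and zinc handling 6 were higher and 10 lower, and each of the 16 differed at least 2-fold. OPT3, a transporter that loads iron into the phloem, had 81.7, 80.8 and 81.7 CPM in the NAA50 line and 532, 503 and 409 CPM in the scrambled line (-2.56 ± 0.17, adjusted p = 1.99e-08). IRT3, a metal transporter that carries zinc and iron, had 23, 27 and 24 CPM against 2.1, 2.06 and 2.99 CPM (3.38 ± 0.23, adjusted p = 3.18e-08). FER1, the iron storage protein ferritin, had 537, 815 and 399 CPM against 124, 62.9 and 70.3 CPM (2.76 ± 0.36, adjusted p = 2.53e-05). Groups did not overlap in any of these. Regulators of the iron deficiency response were lower, among them BHLH101 (0.156, 0.157 and 0.164 CPM against 5.74, 6.1 and 6.62 CPM), PYE (-2.61 ± 0.33, adjusted p = 1.59e-05) and BTS (-1.25 ± 0.16, adjusted p = 1.71e-05). YSL3, a carrier of metal-nicotianamine complexes, was higher (1.38 ± 0.15, adjusted p = 5.65e-06).

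Of 18 genes of nitrogen assimilation and amino acid transport 9 were lower, 3 were higher and 6 did not pass (median -0.53). The summed level of the list was 8413 to 9238 CPM in the NAA50 line and 7983 to 9193 CPM in the control, ranges that overlap. NRT1.5, a nitrate transporter, had 2.03, 2.2 and 1.15 CPM in the NAA50 line and 48.3, 37.1 and 51.9 CPM in the scrambled line (-4.66 ± 0.45, adjusted p = 1.2e-06). AAP6, an amino acid permease, had 11.8, 10.8 and 10.1 CPM against 115, 112 and 116 CPM (-3.39 ± 0.30, adjusted p = 4.85e-07). These groups lay far apart, with little spread inside each. AAP2 (-2.66) and the nitrate transporter NRT1.1 (-2.10) were lower too, whereas nitrate reductase NIA2 (0.76), nitrite reductase NIR1 (1.09) and the transporter NRT2.5 (2.53) were higher.

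Sugar transport and starch genes were divided, 12 of 29 lower and 5 higher. SWEET17, a vacuolar fructose transporter, had 4.77, 4.47 and 6.08 CPM against 30.7, 28.3 and 25.2 CPM in the control (-2.46 ± 0.31, adjusted p = 1.52e-05). GBSS1, which makes amylose, had 715, 661 and 403 CPM against 1797, 1664 and 1409 CPM (-1.45 ± 0.22, adjusted p = 7.33e-05). Starch-degrading DPE1 was higher, with 15.4, 15.4 and 9.86 CPM against 3.65, 3.83 and 2.72 CPM (1.99 ± 0.29, adjusted p = 6.04e-05). SEX4, a phosphatase that acts on starch, was higher too (1.08). Starch breakdown was not uniform, since BAM3 (-1.16) and DPE2 (-0.94) were called lower. The count of higher members was 8 with library-size scaling and 10 with only the 12 h libraries in the fit, whether or not the replicate number was a block.

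Auxin genes moved in both directions. The efflux carriers PIN7 (165, 153 and 112 CPM in the NAA50 line, 34.5, 31.6 and 26.8 CPM in the scrambled line, 2.21 ± 0.18, adjusted p = 2.7e-07) and PIN3 (1.34 ± 0.12, adjusted p = 6.55e-07) were higher. The influx carriers LAX2 (-3.34 ± 0.41, adjusted p = 1.25e-05) and LAX3 (-2.99 ± 0.38, adjusted p = 1.71e-05) were lower, from control levels near 5 CPM. PIN4 was lower as well (-1.61), and the auxin-conjugating enzymes GH3.5 (2.96) and GH3.6 (3.46) were higher. In all 5 of 17 genes of synthesis and transport were lower and 4 higher (52.9% called, against 46.2% of all genes). Of 21 genes of perception and response 14 were lower and 2 higher (median -0.65), most of the lower ones Aux/IAA genes, whose transcription auxin promotes. IAA17 had 13.7, 13.6 and 9.61 CPM against 70.6, 72.1 and 58.6 CPM (-2.45 ± 0.22, adjusted p = 6.84e-07). IAA3 differed by -2.79, with 41.5% of it opposite another gene, and IAA1 by -1.35. IAA29 went the other way, with 18, 16 and 10.1 CPM against 1.09, 1.38 and 1.54 CPM (3.45 ± 0.40, adjusted p = 8.45e-06).

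Of 16 cytokinin genes 7 were lower, mainly type-A response regulators, which cytokinin induces and which dampen its signal. ARR6 had 2.81, 2.35 and 2.05 CPM in the NAA50 line and 23.2, 32.6 and 19.4 CPM in the control (-3.37 ± 0.39, adjusted p = 7.76e-06). ARR4 had 59.8, 60.8 and 69.7 CPM against 188, 204 and 202 CPM (-1.64 ± 0.14, adjusted p = 4.85e-07), and ARR5 (-1.65) and ARR7 (-1.45) were also lower. The 3 higher members were cytokinin oxidases, which degrade the hormone: CKX3 (3.39), CKX5 (2.24) and CKX6 (1.18). CKX3 differed by 2.93 at 0 h already (adjusted p = 0.0929).

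Gibberellin genes gave 3 higher (5 with the replicate block in the 12 h libraries alone) and 2 lower of 16. Of this list 31.2% was called, against 46.2% of all genes. GASA4, a gibberellin-regulated gene, had 45.6, 124 and 31.6 CPM in the NAA50 line against 12, 16 and 11 CPM (2.35 ± 0.39, adjusted p = 0.000199), library 2 being highest in both lines. The DELLA repressors RGL2 (1.16) and RGL3 (1.23) were higher. GA2OX2, which inactivates gibberellin, was lower (-1.14 ± 0.34, adjusted p = 0.0114) but not called without NAA50 library 1 (0.0598). Of 11 brassinosteroid genes 4 were lower (7 with the replicate block in the 12 h libraries alone) and 2 higher, 54.5% called. The synthesis gene DWF4 had 25.3, 26.7 and 18.6 CPM against 5.2, 6.39 and 5.8 CPM (2.02 ± 0.21, adjusted p = 2.41e-06), and BKI1, an inhibitor of the receptor, differed by 1.55. BAS1, which inactivates brassinosteroids, was lower (-1.92), as was the kinase gene BIN2 (-0.47), of which 25.2% overlaps another gene on its strand.

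Of 35 abscisic acid and drought genes 10 were higher and 4 lower, so that 40.0% were called, against 46.2% of all genes. PYL5, an abscisic acid receptor, had 34.8, 51.6 and 34.4 CPM in the NAA50 line and 5.74, 5.41 and 5.26 CPM in the scrambled line (2.88 ± 0.27, adjusted p = 8.31e-07). ABI2, a phosphatase that holds the pathway back, had 96.7, 79 and 123 CPM against 21.9, 25.3 and 24.8 CPM (2.05 ± 0.37, adjusted p = 0.000359). Both were clear of the control in every library. The kinase gene SNRK2.3 (-1.38) and the synthesis gene ABA1 (-0.66) were lower. The drought marker RD29B had 3.44, 0.628 and 8.54 CPM against 0.365, 0.59 and 0.363 CPM and did not pass (adjusted p = 0.195), and LTI30 had overlapping groups. Some of these differences stood at 0 h: HAI1, another phosphatase gene, differed by 5.52 then (adjusted p = 0.0994) and by 3.77 at 12 h (adjusted p = 0.00531), while PYL5 changed between the times (3.29 ± 0.36, adjusted p = 1.65e-05). Over the list the change from 0 h was called positive in 3 members and negative in 4.

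Cold-response genes gave 3 higher and 1 lower of 12 (33.3% called, against 46.2% of all genes), and 6 and 2 with the replicate block in the 12 h libraries alone. The dehydrin genes COR47 (839.8, 586 and 817 CPM against 145, 94.8 and 99.4 CPM, 2.73 ± 0.50, adjusted p = 0.000415) and ERD10 (1.96 ± 0.48, adjusted p = 0.00376) were higher, with groups apart. KIN2 was higher (1.56 ± 0.55, adjusted p = 0.0286), has a copy, KIN1, 95% identical, and lost its call without NAA50 library 1, scrambled library 1 or scrambled library 3 (adjusted p = 0.0872, 0.0625 and 0.0989). ICE1, an upstream transcription factor, was lower (-0.71). COR47 differed by 1.27 at 0 h (adjusted p = 0.301), and its change to 12 h did not pass (adjusted p = 0.12). ERD10 differed by 1.23 and KIN2 by 1.21 at 0 h (adjusted p = 0.312 and 0.366). Their changes to 12 h did not pass either (adjusted p = 0.447 and 0.767). The list median was 1.03 at 0 h and 0.56 at 12 h, and the change was called positive in 0 members and negative in 1.

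Ethylene genes moved in both directions. ACO1, an oxidase of the last step of ethylene synthesis, had 3.6, 3.92 and 3.04 CPM in the NAA50 line against 0, 0.0983 and 0.0907 CPM (adjusted p = 5.35e-06), the control values being at most 1 count a library. Libraries of the lines did not mix. The synthase gene ACS8 (1.97) and the receptor gene EIN4 (0.75) were higher. In all 4 of 24 members were higher and 4 lower (33.3% called, against 46.2%), and the higher count was 9 with library-size scaling or with only the 12 h libraries, and 11 with the replicate block in those libraries.

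In jasmonate signalling JAZ10, a repressor of the pathway that jasmonate itself induces, had 107, 92.7 and 92.3 CPM in the NAA50 line and 3.46, 1.77 and 1.63 CPM in the scrambled line (5.40 ± 0.62, adjusted p = 7.24e-06). JAZ12, another repressor, differed by 0.89. MYC4, a transcription factor of the pathway, had 30, 32 and 24 CPM against 59.7, 52.1 and 57.4 CPM (-0.97 ± 0.15, adjusted p = 9.42e-05), and JMT, which methylates jasmonic acid, differed by -1.47. Within the JAZ family members thus went apart, since JAZ9 (-1.16) and JAZ3 (-1.42) were called lower. Of 32 members 4 were higher and 7 lower (34.4% called, against 46.2%), and with the replicate block in the 12 h libraries alone the counts were 14 and 12.

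Salicylic acid genes, which act against pathogens that feed on living tissue, gave 9 lower of 32 (28.1%, against 24.35% of all genes called lower and 46.2% called either way), and the other 23 did not pass (median -0.76). The share lower is near that of all genes. ALD1, which makes the precursor of N-hydroxypipecolic acid, had 6.17, 6.43 and 7.48 CPM in the NAA50 line and 28.5, 52 and 78.5 CPM in the control (-2.98 ± 0.70, adjusted p = 0.00268). PCC1, a gene induced by salicylic acid, had 196, 158 and 195 CPM against 549, 805 and 709.7 CPM (-1.91 ± 0.46, adjusted p = 0.00333), and a copy identical over 67.5% of its coding sequence exists. GRX480, a glutaredoxin, had 20.4, 11.1 and 24.5 CPM against 44, 60.4 and 77.2 CPM (-1.70 ± 0.49, adjusted p = 0.0103). The NAA50 libraries were all below the control for these genes, and the control libraries spread more. NPR4, a salicylic acid receptor, was lower (-0.60 ± 0.18, adjusted p = 0.0148), but not without NAA50 library 1 (0.0654), scrambled library 3 (0.0795) or with scaling by library size alone (0.11). The marker PR1 averaged 330.2 and 438 CPM (-0.41) and did not pass.

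At 0 h the median of the salicylic acid list was 0.51, and 8 members changed negatively from 0 to 12 h. The count of 9 depends on single libraries: it was 3 without NAA50 library 1 or scrambled library 3, 4 without NAA50 library 2 and 5 without scrambled library 2. It was 4 with library-size scaling, 14 with only the 12 h libraries and 21 with the replicate block in those.

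Of 33 genes of pattern-triggered immunity, the response to conserved microbial molecules, 4 were higher and 6 lower (30.3% called, against 46.2%). The co-receptor kinase gene BAK1 had 109.7, 106 and 118 CPM in the NAA50 line and 42.5, 53.5 and 61 CPM in the control (1.09 ± 0.15, adjusted p = 4.52e-05), and BIK1, a kinase below the receptors, had 72.5, 83 and 65.7 CPM against 33, 27.9 and 36.1 CPM (1.19 ± 0.23, adjusted p = 0.00067). LYK4, a chitin co-receptor, was lower (-0.95), as was the danger peptide gene PROPEP1 (-1.51). The receptor gene FLS2 had mean levels of 14.4 CPM in both lines (0.01). Without NAA50 library 3 or scrambled library 2 the higher count was 2, and with the replicate block in the 12 h libraries it was 8.

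Clock genes differed without a common direction, and light and shade genes were more often lower than higher. RVE1, a morning MYB factor, had 43.3, 49.4 and 39.8 CPM in the NAA50 line and 147, 145 and 157 CPM in the scrambled line (-1.76 ± 0.16, adjusted p = 6.29e-07). GI, an evening gene, had 302, 286 and 265 CPM against 176, 130.4 and 143 CPM (0.93 ± 0.13, adjusted p = 6.2e-05), and ELF3, of the evening complex, differed by 1.09. The morning coactivator LNK2 was lower (-0.77). Of 24 clock genes, 41.7% of which were called, 7 were lower and 3 higher (5 higher with library-size scaling or with the replicate block in the 12 h libraries alone). Both lines carry the same labelled time after dexamethasone, but the time of day of harvest was not found among the labels. Among 14 light and shade genes 7 were lower and 2 higher, with a median of -0.30 (64.3% called, against 46.2% of all genes). The photoreceptor gene PHYA had 237, 235 and 249 CPM against 91.6, 73.3 and 88.6 CPM (1.51 ± 0.13, adjusted p = 3.88e-07). PIF1 (-1.69) and PIF4 (-1.22), factors that phytochromes restrain, and ELIP2 (-1.90), an early light-induced protein, were lower, and the lower count was 4 without NAA50 library 3.

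In the flowering list 5 of 10 genes were higher and 3 lower. MAF5, a relative of the floral repressor FLC, had 12, 12 and 14 CPM in the NAA50 line and 0.182, 0.492 and 0.635 CPM in the control (4.83 ± 0.46, adjusted p = 1.22e-06). It was among the few genes called at 0 h (3.73, adjusted p = 0.00451), and the change to 12 h did not pass (1.1 ± 0.75, adjusted p = 0.305). MAF2 (0.84) was higher, and SVP (-0.71), a repressor, and SPL3 (-1.24), a promoter of flowering with 97.6% of it opposite another gene, were lower. The MIR319A precursor had 38.2, 34 and 28.6 CPM against 0.365, 0.492 and 0.272 CPM (6.45 ± 0.45, adjusted p = 3.99e-08). Its mean level at 0 and 24 h was 0.581 and 39.5 CPM in the NAA50 line, and 0.282 and 0.346 CPM in the scrambled line. The hairpin that carries each amiRNA was not found among the labels. Whether reads of such a hairpin were counted at this locus was not tested. Of the transcription factor genes that the MIR319A microRNA targets, TCP10 (-1.35), TCP3 (-0.84, with 78.7% of it opposite another gene) and TCP2 (-0.71) were lower. TCP24 (0.70) was higher and TCP4 (0.30) did not pass. In the whole miR319 list of 7 genes, MIR319A included, 3 were higher, 3 were lower and 1 did not pass. Its median was 0.30, and 85.7% was called, against 46.2% of all genes.

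Genes that loosen the cell wall were lower in 11 of 22 cases, all at least 2-fold, and higher in 3 (63.6% called, against 46.2%; median -1.18). XTH7, a xyloglucan endotransglucosylase, had 3.13, 2.51 and 1.31 CPM in the NAA50 line and 32.5, 37.4 and 28 CPM in the scrambled line (-3.80 ± 0.42, adjusted p = 5.03e-06). EXPA1, an expansin, had 54.6, 48.6 and 43.8 CPM against 287, 263 and 225 CPM (-2.40 ± 0.35, adjusted p = 6.76e-05), and EXPA11 (-1.85) and EXPA8 (-2.46) were lower. XTH19 (2.81) and EXPA10 (2.26) were called higher. Among 16 genes of cellulose and pectin PME5, a pectin methylesterase, had 71.9, 119.9 and 69.2 CPM against 0.182, 0.59 and 0 CPM (8.39 ± 0.55, adjusted p = 2.29e-08). QUA1 (0.99), a glycosyltransferase, was higher, and CESA5 (-1.13), of cellulose synthase, and PME3 (-1.53) were lower. This list had 3 higher and 2 lower members (31.2% called, against 46.2%), or 5 and 6 with the replicate block in the 12 h libraries alone.

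Cell division genes were more often lower than higher. CYCD3;3, a D-type cyclin that drives entry into the cycle, had 39.6, 45.3 and 34.7 CPM in the NAA50 line and 4.19, 4.42 and 2.99 CPM in the scrambled line (3.36 ± 0.24, adjusted p = 5.26e-08). CYCD3;1 had 10.4, 13.9 and 8.46 CPM against 1.37, 3.05 and 1.18 CPM (2.56 ± 0.45, adjusted p = 0.000296), and the inhibitor gene KRP1 was higher as well (1.01). Each was higher in all 3 NAA50 libraries. Replication genes had low levels and were lower, among them PRL, a subunit of the MCM helicase, with 0.703, 1.18 and 1.15 CPM against 3.28, 4.42 and 2.72 CPM (-1.77 ± 0.32, adjusted p = 0.000403). MCM2 to MCM6 differed by -1.27 to -0.91, PCNA1 by -1.51 and CDC6 by -2.35. Of 24 members 14 were lower and 5 higher (median -0.77), and with a minimum count of 50 the lower count was 8, since fewer members were tested.

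Cuticle genes gave 5 higher and 2 lower of 13 (53.8% called, against 46.2% of all genes). CER1, an enzyme of alkane formation in wax, had 53.7, 52.2 and 37.6 CPM in the NAA50 line and 9.85, 4.33 and 0.725 CPM in the control (3.27 ± 0.68, adjusted p = 0.00121). CYP77A6, a cutin hydroxylase, differed by 4.34 ± 0.53 from control levels of 0.0912 to 0.363 CPM, and WSD1, a wax ester synthase, by 2.74. MYB16, a regulator of cuticle genes, was lower (-1.20). Of 18 phenylpropanoid and flavonoid genes 8 were lower and 4 higher. MYB75, the activator of anthocyanin synthesis, had 52.8, 35.1 and 57.9 CPM against 1.55, 2.95 and 3.35 CPM (4.21 ± 0.40, adjusted p = 9.81e-07), and PAL4 was higher (1.62). The enzymes F3H (-1.57, with 94.5% of it opposite another gene) and C4H (-0.53) were lower, and C4H had been called higher at 0 h (0.77, adjusted p = 0.0226).

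In the endoplasmic reticulum list, which holds chaperones and stress sensors, most genes did not pass. BAG7, a co-chaperone resident there, had 265, 261 and 228 CPM in the NAA50 line and 50.5, 52.8 and 57.7 CPM in the scrambled line (2.23 ± 0.13, adjusted p = 5.44e-09). IRE1A, which senses unfolded proteins in that compartment, had 167, 156 and 158 CPM against 54.6, 51.9 and 63.5 CPM (1.5 ± 0.17, adjusted p = 5.29e-06). NAC103, a factor of the response, had 1.41, 1.26 and 1.07 CPM against 0.182, 0.0983 and 0.0907 CPM (3.21 ± 0.61, adjusted p = 0.000558), on 1 or 2 counts a control library. All 3 were separated between the lines, and PDIL1-4, a disulfide isomerase, was higher by 0.89. The major chaperone genes BIP1 (-0.12), BIP2 (0.02) and CNX1 (-0.29) did not pass, and BIP1 and BIP2 are 97.5% identical. In all 8 of 34 members (26.5% called in either direction, against 46.2%) were higher and 1 lower. The higher count was 4 without NAA50 library 3, scrambled library 1 or scrambled library 2, 5 without NAA50 library 1, and 14 with the replicate block in the 12 h libraries alone, where 6 were lower.

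Of 21 cytosolic heat shock genes 5 (23.8%) were lower, near the 24.35% of all genes, and 16 did not pass (median -0.35). With the replicate block in the 12 h libraries alone 8 were lower and 2 higher. GOLS1, a galactinol synthase induced by heat, had 9.07, 9.33 and 14.1 CPM in the NAA50 line and 46.3, 53.3 and 80.7 CPM in the control (-2.47 ± 0.24, adjusted p = 1.24e-06). HSC70-1, a constitutive chaperone, had 1918, 1676 and 1870 CPM against 2909, 2952 and 2515 CPM (-0.62 ± 0.13, adjusted p = 0.00114). HSFB2A (-0.72) and HSP90.3 (-0.61, with near-identical neighbours) were lower. Of 22 genes for cytosolic ribosome proteins and RACK1, 10 were lower and 1 higher (50% called, against 46.2%; median -0.35), RACK1C by -1.13 and RPL10C by 0.93. That count rests on small differences and was 1 with library-size scaling, and 5 or 6 without NAA50 library 1, 2 or 3 or scrambled library 1 or 2.

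Among 29 genes of oxidative stress and detoxification 5 were lower and 4 higher (31.0% called, against 46.2%), with 2 higher without NAA50 library 3. CAT3, a catalase, had 426, 317 and 359 CPM in the NAA50 line and 1119, 1178 and 1339 CPM in the control (-1.72 ± 0.19, adjusted p = 3.9e-06). UGT74E2, a glycosyltransferase of an auxin precursor induced by hydrogen peroxide, had 62.1, 40.9 and 106 CPM against 5.38, 2.06 and 2.9 CPM (4.32 ± 0.92, adjusted p = 0.00132), though its difference at 0 h was 4.48 (adjusted p = 0.153). OPR1 (-1.60) and the zinc finger gene ZAT12 (-1.19) were lower. With only the 12 h libraries the lower count was 9, and with the replicate block in these it was 16. In the hypoxia list the ethylene response factors whose stability depends on their N-terminus went apart. RAP2.2 had 235, 236 and 225 CPM against 54.1, 44.3 and 55.3 CPM (2.18 ± 0.13, adjusted p = 7.51e-09), RAP2.12 differed by 0.59 and RAP2.3 by -1.81 ± 0.26 (adjusted p = 6.43e-05). ADH1, a marker of low oxygen, had 8.0, 2.1 and 37 CPM against 1.55, 0.787 and 1.54 CPM and was not called (3.58 ± 1.46, adjusted p = 0.0554), but it was with the replicate block (0.0132), by DESeq2 (0.00795) and without NAA50 library 2 (0.0336). ADH1 differed by 4.70 at 0 h already (adjusted p = 0.193), where the NAA50 libraries ran from 2.01 to 136 CPM. Its change to 12 h was -1.12 ± 2.13 (adjusted p = 0.737).

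Markers of leaf cell types were compared as a check of the labelled tissue. Of 8 guard cell markers 4 were lower (50.0% called, against 46.2% of all genes), MYB60 (-0.84), KAT1 (-0.89), SLAC1 (-1.15, with 38.1% of it opposite another gene) and KAT2 (-1.07), and 4 did not pass. The summed level of the list was 1373 to 1968 CPM in the NAA50 line and 1256 to 2069 CPM in the control. Phloem and bundle markers gave 1 higher (2 with the replicate block in the 12 h libraries alone) and 4 lower of 10, also 50.0% called. The sucrose loader SUC2 had 486, 446 and 504 CPM in the NAA50 line and 161, 166 and 171 CPM in the control (1.53 ± 0.17, adjusted p = 5.8e-06), while the exporter SWEET12 differed by -4.53 ± 0.78 (adjusted p = 0.000261). SULTR2;1, a vascular sulfate transporter, had 14.1, 15.2 and 15.4 CPM against 92.1, 114 and 102 CPM (-2.78 ± 0.24, adjusted p = 4.74e-07), and AHA3 differed by -0.56. Their summed level was 1119 to 1187 CPM against 1042 to 1101 CPM.

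Xylem markers gave 1 higher (XCP1, 1.86) and 2 lower (XND1, -2.81, and PXY, -1.59) of 10, and COBL4 (0.81) did not pass. Their summed level was 59.3 to 67.9 CPM against 44.3 to 67.3 CPM. Among 7 epidermis and trichome markers (28.6% called) TRY (-2.34) and ATML1 (-1.34) were lower. CER5 (-0.43) and LTP1 (0.47) were not called except with the replicate block in the 12 h libraries (adjusted p = 0.00241 and 0.000438), their groups overlapping. The summed level of that list was 574 to 911 CPM against 621 to 901 CPM. Markers of a cell type thus moved apart from one another, and their part in the other results was not tested. The 13 chosen markers of root, flower, seed and pollen were near 0, and 0 of the 13 had enough counts to be tested. They summed to 0.0782 to 0.392 CPM in the NAA50 line and 0.729 to 1.45 CPM in the control. These 13 do not show that no gene of another organ was expressed. EDA21, outside the list and annotated as embryo sac development arrest 21, had 4.53, 5.88 and 4.03 CPM against 0 counts.

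**Figure D4:**
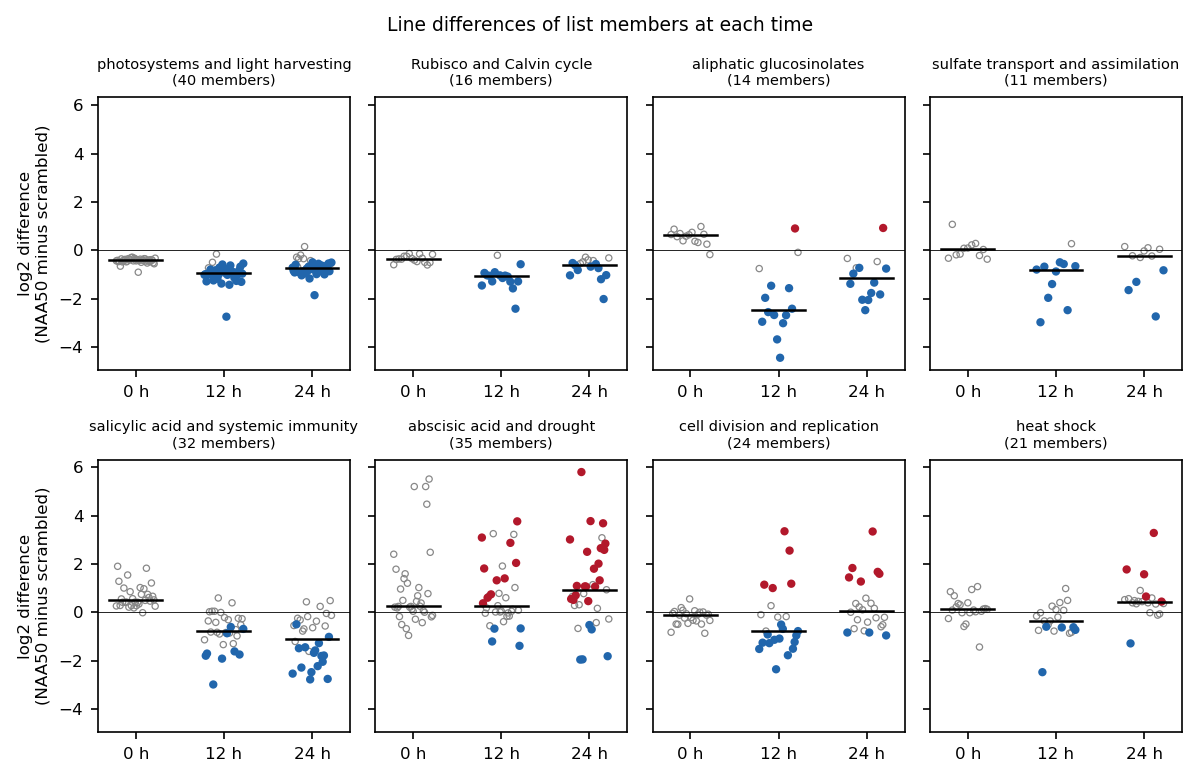
Line difference (log2, NAA50 minus scrambled) of every tested member of 8 lists at 0, 12 and 24 h, filled in red or blue where called at that time, open where not, with a bar at the median. The photosystem median runs from -0.42 to -0.94 and -0.73, that of the aliphatic glucosinolates from 0.61 to -2.49 and -1.15, and that of the heat shock genes from 0.13 to -0.35 and 0.45.

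Set beside the other times, the 12 h difference was in part unlike that before induction. The change in the line difference from 0 to 12 h was called in 4586 genes (25.0%), 2161 positive and 2425 negative. That is fewer than the 8484 genes called at 12 h, but a change combines 2 differences and has a larger standard error. For NAA50 that error was 0.24 against 0.18. The smaller count thus does not show how many differences stood at 0 h. At 24 h 8794 genes (47.9%) were called. Of the genes higher at 12 h, 2711 were also higher at 24 h (67.5% of those at 12 h, 61.9% of those at 24 h), and 2737 were lower at both (61.3% and 62.0%), while 45 and 80 changed side. The lists moved between the times as well. The heat shock median was -0.35 at 12 h and 0.45 at 24 h, with 7 of 21 members changing positively, against 4.43% of all genes. For cold response the median was 1.03 at 0 h, 0.56 at 12 h and 3.07 at 24 h, with 3 of 12 changing positively from 12 to 24 h. In the salicylic acid list 9 were lower at 12 h and 16 at 24 h, but the lowest adjusted p of a change between these times was 0.134.

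Between 12 and 24 h the line difference changed in 1242 genes (6.77%), 813 (4.43%) positively and 429 (2.34%) negatively. PIRL8 was highest at 12 h, with a mean of 41.1 CPM in the NAA50 line at 24 h (range 39 to 45.2 CPM) against 0.539 CPM in the control, and its difference was smaller by 3.31 ± 0.71 (adjusted p = 0.0129). RHA2B, a RING finger ubiquitin ligase, had 1.72, 2.27 and 0.986 CPM in the NAA50 line and 2.1, 2.16 and 1.99 CPM in the control at 12 h, overlapping groups, and means of 16.3 and 0.401 CPM at 24 h. Its change was 5.61 ± 0.51 (adjusted p = 5.95e-05). DDF1, a transcription factor of the CBF group, changed by 5.09 ± 0.96 (adjusted p = 0.00641) and had 4.3, 0.392 and 3.12 CPM against 4.38, 2.46 and 1.81 CPM at 12 h. AGP17, an arabinogalactan protein, was higher in the NAA50 line at 12 h (18.1, 24.9 and 20.6 CPM against 7.38, 8.65 and 5.8 CPM) and lower at 24 h (means of 23.8 and 93.4 CPM), a change of -3.52 ± 0.56 (adjusted p = 0.00225).

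**Figure D5:**
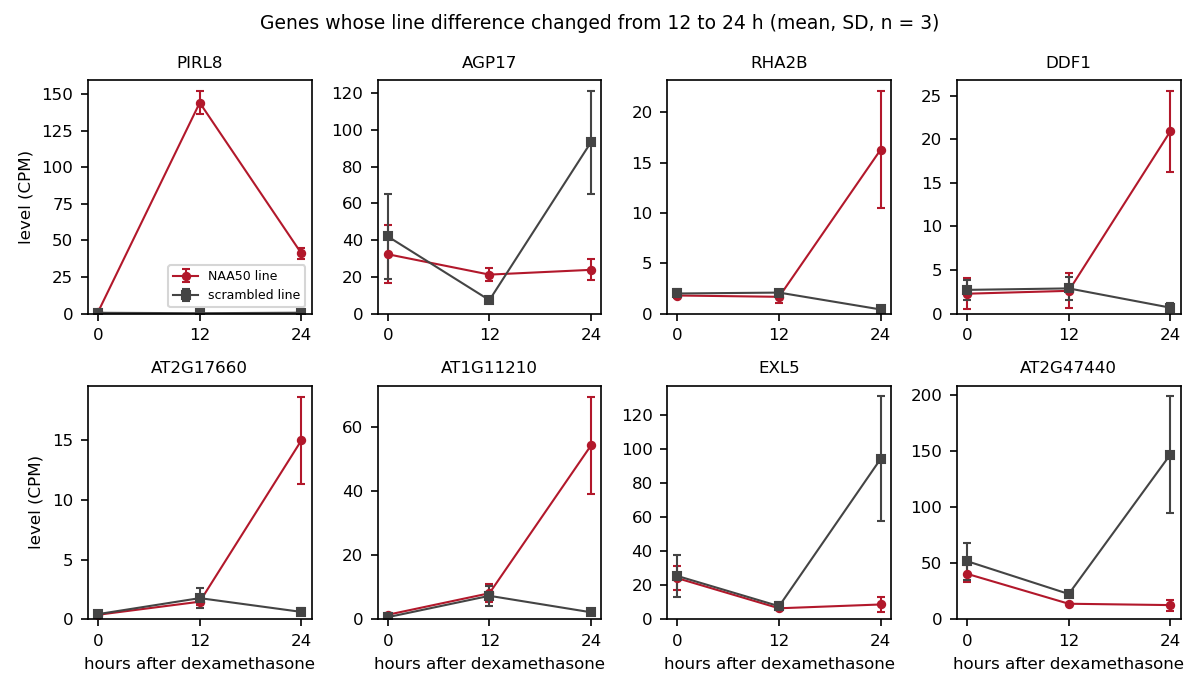
Mean level (CPM, bars ± SD, n = 3) of 8 genes whose line difference changed between 12 and 24 h, in the NAA50 line (red circles) and the scrambled line (grey squares), with 0, 12 and 24 h joined by lines. RHA2B and DDF1 are near the control at 12 h and reach 16.3 and 20.9 CPM in the NAA50 line at 24 h, while for AGP17, EXL5 and AT2G47440 it is the control that is higher at 24 h, at 93.4, 94.1 and 147 CPM.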

How the data were processed

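Messenger RNA of pooled leaves was sequenced in 18 libraries, of which the 6 taken at 12 h are compared here. The authors deposited raw read counts per gene for 23790 genes, not normalized. Trimmomatic, STAR, DESeq2 and the TAIR10 build are named in the submitters' processing notes, with no version or role, and the sources used here do not give the counting program or its strand setting. Each column was tied to its sample through the sample description. In the scrambled line at 12 h these names and the codes that open the titles are unlike, and the stated time decided.

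All 18 libraries (10389333 to 12353330 counts) were fitted in edgeR 4.0.16 (R 4.3.3) with 1 mean per line and time, TMM scaling, filterByExpr (minimum count 10, minimum total 15) and the quasi-likelihood F test, with Benjamini-Hochberg adjustment over the 18344 genes tested. The line difference at 12 h and its change from 0 h and to 24 h were contrasts of that fit. Alternatives were DESeq2 1.42.0, other scalings and filters, the 12 h libraries alone, the replicate number as a block and leaving out each library. Same-numbered libraries of the 2 lines at 12 h deviated together (r = 0.128, 0.22 and 0.342, against -0.286 to 0.095 for different numbers), every same-numbered r being over 0.1. The fit reported has no block, and values with the block stand beside the results they change.

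Genes named are NAA50, the 12 largest increases and 12 largest decreases among called genes whose mean log2 CPM was 1 or more and no overlap of groups, the 6 most abundant called genes at least 2-fold apart each way, up to 4 members per list with the lowest adjusted p, and the 6 largest changes each way from 12 to 24 h. Members and lists were chosen with earlier results of these data known. Names and positions are from the RefSeq annotation of TAIR10.1, which held 98.8% of the gene identifiers. Of 856 list members 837 were kept and in the table. Near-identical copies are at least 95% identical over at least 50% of the coding sequence, or of the exons of a gene without one, by BLAST 2.17.0. A floor of 3 counts covers counting error only.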

Additional observations from a re-analysis of the deposited data

Results flagged for a closer look

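The difference between the lines itself differed between times, by edgeR's test of that change. From 0 to 12 h it was called positive in 2161 genes and negative in 2425, and from 12 to 24 h positive in 813 and negative in 429.

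The 6 largest positive changes from 12 to 24 h were in RHA2B (5.61 ± 0.51, adjusted p = 5.95e-05), DDF1 (5.09 ± 0.96, adjusted p = 0.00641), AT1G24130 (4.92 ± 1.27, adjusted p = 0.035), AT2G17660 (4.87 ± 0.57, adjusted p = 0.000427), AT1G11210 (4.52 ± 0.55, adjusted p = 0.00056) and AT4G33905 (4.25 ± 1.08, adjusted p = 0.0281). AT1G24130, a WD40 repeat gene, had 0 counts in the scrambled line at 24 h, so its fitted change depends on the prior count. Its call was lost when any of 9 of the 12 libraries of these times was left out (adjusted p = 0.0565 to 0.0861), as was that of AT4G33905 (0.052 to 0.0689). AT2G17660, of the RIN4 family, averaged 15 CPM in the NAA50 line and 0.603 CPM in the scrambled line at 24 h, and AT1G11210 averaged 54.1 and 2.1 CPM.

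The 6 largest negative changes were in AGP17 (-3.52), PIRL8 (-3.31), AT5G02760 (-3.28 ± 0.73, adjusted p = 0.0149), EXL5 (-3.20 ± 0.59, adjusted p = 0.00577), AT4G34760 (-3.06 ± 0.57, adjusted p = 0.00625) and AT2G47440 (-2.84 ± 0.42, adjusted p = 0.00141). AT5G02760, a protein phosphatase 2C gene, averaged 0.238 and 13.9 CPM at 24 h, and AT4G34760, a SAUR-like auxin-responsive gene, averaged 1.26 and 12.4 CPM.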

How the results depend on the processing

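Over all genes the counts higher and lower at 12 h stayed within 1.5 times of 4018 and 4466 under every alternative run: 3319 to 3711 higher and 3647 to 4124 lower without 1 of the 12 h libraries, 4109 and 4448 by DESeq2, 3994 and 4424 with the replicate block within each time, and 5259 and 5088 with the replicate block and only the 12 h libraries. The change from 0 h gave 1708 to 2269 positive and 1802 to 2324 negative calls without 1 library. The change from 12 to 24 h was less stable: without 1 library it gave 409 to 1038 positive and 194 to 803 negative calls, and its negative count was 1075 with library-size scaling and 698 by DESeq2. The lowest counts, 409 and 194, came without scrambled 12 h library 1, and 1038 and 803 without scrambled 24 h library 3. The cause was not tested. The replicate block within each time changed 3 calls of named genes: ADH1 and AT2G47440 gained theirs at 12 h (adjusted p = 0.0132 and 0.0398), and the change of AT1G24130 to 24 h lost its call (0.0733). Of 3217 pairs of a named gene and an alternative, 3155 kept direction and side, 37 lost a call, 15 gained one and 10 reversed, and of 1204 list counts 103 moved by over 1.5 times. The reversed values were of genes not called at 12 h: AT5G13780 (0.02), MAK10 (0.07) and DDF1 (0.02) with library-size scaling, DDF1 without NAA50 library 2 (0.36) or scrambled library 1 (0.29), AT2G17660 without scrambled library 1 (0.19), AT1G11210 without NAA50 library 1 (-0.03) or scrambled library 2 (-0.15), AT4G33905 without NAA50 library 3 (-0.20) and EXL5 without scrambled library 2 (0.03). The change of PIRL8 to 24 h lost its call without scrambled 24 h library 3 (-2.72, adjusted p = 0.0545). Without 1 library the 12 h differences of these genes ran up to or from -0.72 for DDF1, -0.50 for AT2G17660, 0.47 for AT1G11210, 0.73 for AT4G33905 and -0.44 for EXL5. At these depths 3 counts are 0.234 to 0.295 CPM in a 12 h library, and genes below that are not resolved.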
